A study of Saccharomyces cerevisiae with 4 samples.

Results

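The cytosolic translation factor genes of Saccharomyces cerevisiae encode the proteins that start, extend and end protein synthesis on cytosolic ribosomes. They were taken from a list of 37 gene symbols covering initiation, elongation and termination factors and the poly(A)-binding protein, and matched to array spots by the platform's gene symbol. 36 of the 37 were found among 6051 genes and unnamed spots, each with 1 spot, and comprised 23 initiation factor genes, 10 elongation factor genes, 2 release factor genes and PAB1. TIF3, the gene of eIF4B, was not matched to a spot and is not analysed here. RNA was measured in hsf1-R206S/F256S cells on 2 arrays and in HSF1 wt cells on 2 arrays. HSF1 encodes the heat shock transcription factor, and the allele carries 2 amino acid substitutions. The cells of both strains had been held at 39 °C for 15 min. The labels give neither the rest of the genotype nor whether replicates were separate cultures, so every spread below is between arrays and may be technical. Unheated cells were not analysed here, and the values compare strains in heat without measuring a response to heat.

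Translation begins when eIF2 brings the initiator tRNA to the small ribosomal subunit, while eIF4F binds the mRNA cap and eIF3 holds the assembly together. The exchange factor eIF2B reloads eIF2 with GTP after each round and is the step that amino acid starvation throttles through the kinase Gcn2. In elongation, eEF1A delivers aminoacyl-tRNA, eEF1B recharges eEF1A, eEF2 moves the ribosome along, and fungi also need eEF3. The release factors eRF1 and eRF3 end synthesis at stop codons. In yeast, transcripts of the translation machinery are known to drop for a time after a shift to heat.

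Each array carried the RNA of 1 sample, labelled with 33P. The deposited intensities, in arbitrary units, had medians of 11.9 and 8.49 on the mutant arrays and 6.28 and 5.86 on the wild-type arrays, so the arrays were quantile-normalized. An array's background limit was set at 3 SDs of its noise, estimated from its negative values, and was 8.39 and 11.7 on the mutant arrays and 8.95 and 15.6 on the wild-type arrays in deposited units. Spots past that limit made up 61.2% and 41.5% on the mutant arrays and 40.6% and 24.9% on the wild-type arrays. The limit was highest on wild-type replicate 2. As a check of the strains, the Hsp70 gene SSA4, which Hsf1 drives, had normalized intensities of 78.1 and 38.8 in the mutant, against 548 and 498 in the wild type. The small heat shock protein gene HSP26 had 5.32 and 4.18 in the mutant, against 203 and 195 in the wild type. HSF1 itself had 625 and 540 in the mutant, against 37.1 and -3.61 in the wild type; its spot cannot show the substitutions.

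The mean was higher in the mutant for 28 of the 36 translation factor genes, against 50.6% of all genes, and for 22 of 36 when mutant replicate 1 was left out. Taken array against array, the fewest were higher between mutant replicate 2 and wild-type replicate 1, with 20 of 36 and a median log2 difference of 0.079. A fold rule was used that asks for a difference of at least 2-fold with the mutant arrays both above, or both below, the wild-type pair. By this rule 14 of the 36 genes were higher in the mutant, or 38.9%, and 0 were lower, where 13.5% of all genes and unnamed spots were higher and 12.8% lower. Their median log2 difference, mutant minus wild type, was 0.82, and that of all genes was 0.01. 0 genes of the whole table (0%) passed limma's test after Benjamini-Hochberg adjustment, the lowest adjusted p being 0.277. At an unadjusted p under 0.05 in limma, 10 of the 36 were higher and 0 lower, while 5.7% of all genes were higher. 2 arrays against 2 cannot give an exact permutation p below 0.333, so the counts describe these 4 arrays. The median of the list was 0.60 when mutant replicate 1 was left out and 0.55 when wild-type replicate 2 was. A larger offset also gave 0.55, so these medians lay above 0. With dim genes at their bounds, or at 0 where no bound gave a fold, the median was 0.21. Genes placed at 0, TIF35 and HCR1 with means lower in the mutant among them, cannot pull that median below 0.

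**Figure D1:**
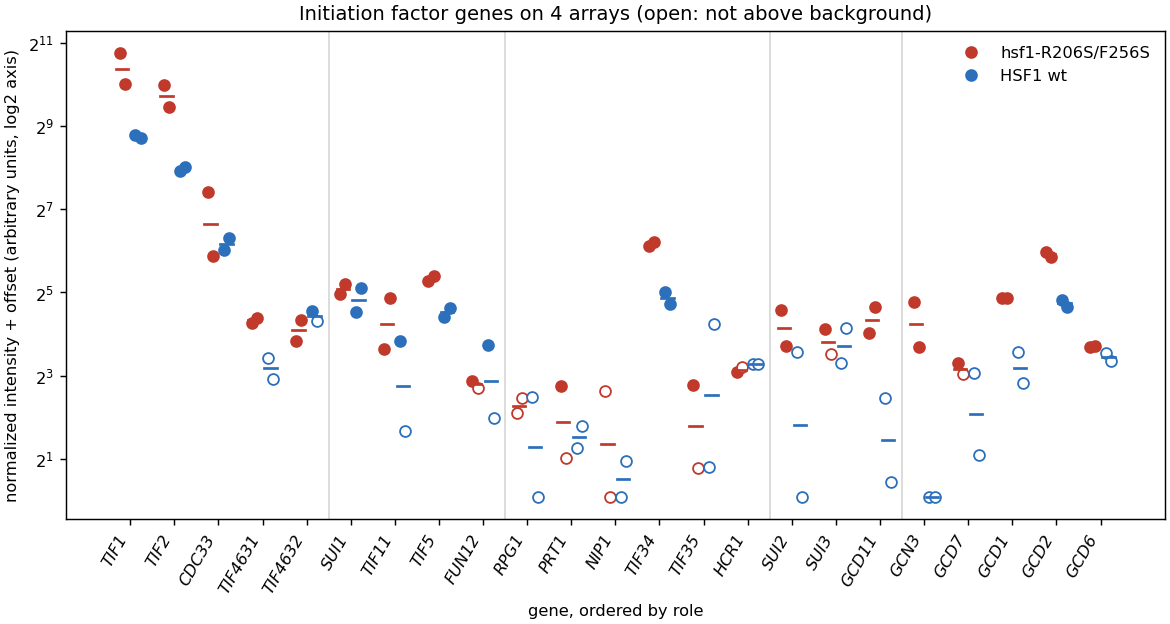
Normalized intensity plus the offset (arbitrary units, log2 axis) of 23 initiation factor genes, with mutant arrays left and wild-type arrays right of each gene, replicate 1 before replicate 2. Bars are means on the log2 scale over 2 arrays, open points lie below the background limit, and the points for TIF1, TIF2, TIF34 and GCD2 stand apart between the strains with every point filled.

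Among the genes of cap recognition, TIF1 and TIF2 met the fold rule on spots far above background. These genes encode the same eIF4A protein, the helicase that unwinds mRNA leaders, and their near-identical sequences can share signal, so they are not independent of each other. TIF1 had normalized intensities of 1707 and 1027 in the mutant, against 437 and 417 in the wild type. TIF2 had 1004 and 697 in the mutant, against 242 and 256.2 in the wild type. The strains did not overlap for either gene, and the log2 differences were 1.63 (SE 0.46) and 1.74 (SE 0.41), or 3.10-fold and 3.35-fold, with limma adjusted p of 0.364 and 0.327. In deposited units TIF1 had 1140 and 1037 in the mutant, against 497 and 539 in the wild type, which also kept the strains apart. With median scaling in place of quantile normalization the differences of TIF1 and TIF2 were 0.34 and 0.39, and neither met the fold rule.

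CDC33 encodes eIF4E, the protein that binds the cap. It had 169 and 57.6 in the mutant, against 63.8 and 78.0 in the wild type, so the mutant arrays lay on either side of the wild-type arrays. The scaffold eIF4G has 2 genes, TIF4631 and TIF4632. TIF4631 had 18.2 and 20.0 in the mutant, against 9.74 and 6.52 in the wild type, where neither array was above background. Its mean was at least 1.22-fold higher by a bound that averages the limits of the 2 wild-type arrays. The normalized limit of wild-type replicate 2, 20.8, lay above both mutant values, and that of replicate 1, 11.4, lay below both. The difference of 1.15 (SE 0.41) met the fold rule. It missed the rule with a larger offset, at 0.93, and when wild-type replicate 2 was left out, at 0.89. The paralog TIF4632 had 13.3 and 19.1 in the mutant, against 22.5 and 18.8 in the wild type, where replicate 2 was below background. Its strains overlapped, at -0.34 (SE 0.42), or 0.27 on the values as deposited. The difference between the paralogs was not tested.

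None of the genes for eIF1, eIF1A, eIF5 and eIF5B, which act on start codon choice and subunit joining, met the fold rule. SUI1 encodes eIF1, which guards the choice of start codon, and had 30.2 and 36.0 in the mutant, against 22.0 and 33.5 in the wild type, with overlap. TIF5 encodes eIF5, which makes eIF2 hydrolyse its GTP. It had 37.4 and 40.9 in the mutant, against 20.3 and 23.7 in the wild type, without overlap, at 0.80 (SE 0.37), short of 2-fold. TIF11 encodes eIF1A and had 11.4 and 28.0 in the mutant, against 13.3 and 2.16 in the wild type, where replicate 2 was below background. Its arrays overlapped, although its mean difference was 1.49 (SE 1.0). Leaving out mutant replicate 1 or 2 gave 2.29 or 0.90, and leaving out wild-type replicate 1 or 2 gave 2.51 or 0.41. FUN12 encodes eIF5B, which joins the large subunit, and had 6.27 and 5.50 in the mutant, against 12.2 and 2.93 in the wild type, with 1 array above background in each strain.

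Of 6 measured subunit genes of eIF3, 1 was well measured. TIF34, a core subunit, had 67.9 and 72.5 in the mutant, against 31.4 and 25.5 in the wild type, and the strains stood apart on all 4 arrays. The difference was 1.28 (SE 0.38), or 2.43-fold, with a limma adjusted p of 0.378, and it was 0.98 with median scaling, which ends the fold rule. The other eIF3 genes, RPG1, PRT1, NIP1, TIF35 and HCR1, lay at normalized intensities from -5.14 to 8.18 in the mutant and from -4.30 to 17.9 in the wild type, and for none of them did both arrays of a strain clear the background limit. RPG1, PRT1 and NIP1 encode the large core subunits, TIF35 a core subunit that binds Tif34, and HCR1 a loosely attached one. Their differences ran from -0.75 for TIF35 to 1.0 for RPG1, none met the fold rule, and every one of these 5 changed sign in at least 1 alternative processing. What eIF3 did as a complex therefore cannot be read from these spots.

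The GTPase eIF2 was likewise dim in the wild type. GCD11, its GTP-binding gamma subunit, had 15.2 and 24.2 in the mutant, against 4.49 and 0.306 in the wild type. No wild-type array was above background, and the normalized limit of wild-type replicate 2, 20.8, exceeded the mutant value of 15.2. By its bound the GCD11 mean was at least 1.23-fold higher, and the fitted 2.88 (SE 0.88) is not a bound. It was 1.90 with a larger offset, 3.50 when mutant replicate 1 was left out, and 3.78 or 1.81 when wild-type replicate 1 or 2 was. SUI2, the alpha subunit that Gcn2 phosphorylates, had 22.8 and 12.1 in the mutant, against 10.8 and -241 in the wild type. The deposited value behind the last was -496, far below the noise of that array, and when it was left out the difference of SUI2 was 0.57, in place of 2.32 with it, and the fold rule was not met. Leaving out wild-type replicate 1 gave 4.06. At its bound the SUI2 mean was at least 1.07-fold higher, with the mutant value of 12.1 below the normalized limit of wild-type replicate 2, 20.8. SUI3, the beta subunit, had 16.4 and 10.4 in the mutant, against 8.76 and 16.8 in the wild type, with full overlap.

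For eIF2B, the mutant mean was above that of the wild type for all 5 subunit genes, and 3 passed the fold rule, against 50.6% and 13.5% of all genes. For 4 of the 5, no wild-type array was above background. GCD2, the delta subunit of the regulatory core, had 62.1 and 57.2 in the mutant, against 27.0 and 24.3 in the wild type, above background on all 4 arrays. It differed by 1.18 (SE 0.37), or 2.27-fold, with a limma adjusted p of 0.388, and by 0.94 with median scaling. GCD1, the gamma subunit of the catalytic part, had 27.9 and 28.3 in the mutant, against 10.7 and 6.04 in the wild type. The mutant arrays agree closely, no wild-type array was above background, and GCD1 was at least 1.77-fold higher. It met the fold rule in each of 11 alternative fits. Some of these cannot change the difference of a gene above 0 on all 4 arrays. They are the fits on brighter genes alone, without values at or below 0, and with a term for replicate number.

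GCN3, the alpha subunit that senses phosphorylated eIF2, had 26.2 and 11.9 in the mutant, against -5.29 and -2.71 in the wild type. It had the largest fitted difference of the list, 4.15 (SE 0.54), but both wild-type values were set to 0 before the logarithm, so that size depends on the offset and was 2.39 with a larger one. At its bound the GCN3 mean was at least 1.14-fold higher, with the mutant value of 11.9 below the normalized limit of wild-type replicate 2, 20.8. GCD7, the beta subunit, had 8.88 and 7.12 in the mutant, against 7.31 and 1.07 in the wild type, with overlap. GCD6, the catalytic epsilon subunit, had 11.9 and 11.97 in the mutant, against 10.5 and 9.16 in the wild type, apart by only 0.26 (SE 0.37).

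PAB1 encodes the protein that coats the poly(A) tail and links it to eIF4G. It had 74.5 and 62.1 in the mutant, against 23.0 and 28.5 in the wild type, with every array above background and no overlap. The difference was 1.37 (SE 0.39), or 2.59-fold, with a limma adjusted p of 0.370. It met the fold rule in all 11 alternative fits, where it ran from 1.11 to 1.82, though some of these fits cannot change its difference.

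**Figure D2:**
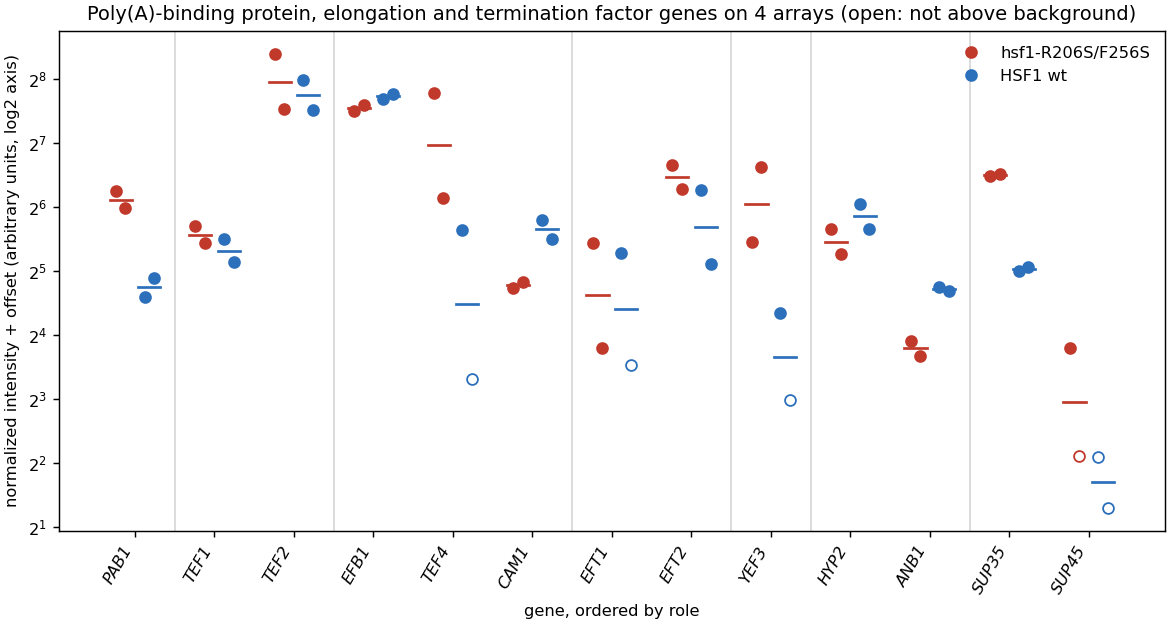
Normalized intensity plus the offset (arbitrary units, log2 axis) of PAB1, 10 elongation factor genes and 2 release factor genes, with mutant arrays left and wild-type arrays right of each gene, replicate 1 before replicate 2. Bars are means on the log2 scale over 2 arrays and open points lie below the background limit; SUP35 and PAB1 stand higher in the mutant, CAM1 and ANB1 lower.

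The differences of the elongation factor genes pointed both ways. TEF1 and TEF2 encode the same eEF1A protein, and their spots can share signal. TEF2 had 333 and 182 in the mutant, against 250 and 181 in the wild type, and TEF1 had 50.8 and 42.0 in the mutant, against 44.0 and 34.0 in the wild type. Both pairs overlapped, with differences of 0.21 (SE 0.52) for TEF2 and 0.25 (SE 0.40) for TEF1. Median scaling turned both below 0, to -0.91 for TEF2 and -0.02 for TEF1.

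The eEF1B complex held opposite values within itself. EFB1, its catalytic alpha subunit, had 179 and 191 in the mutant, against 204 and 217 in the wild type, a narrow separation of -0.18 (SE 0.36), and -1.24 with median scaling. The gamma subunit has 2 genes, TEF4 and CAM1. TEF4 had 219 and 69.0 in the mutant, against 48.5 and 8.89 in the wild type, without overlap but with wide spread in each strain, and wild-type replicate 2 was below its background limit. Its difference of 2.48 (SE 1.13) had a limma adjusted p of 0.542 and depended on every array. Leaving out mutant replicate 1 or 2 gave 1.76 or 3.40, and leaving out wild-type replicate 1 or 2 gave 3.54 or 1.21. CAM1 had 25.6 and 27.2 in the mutant, against 54.5 and 44.1 in the wild type. All 4 CAM1 values were above background, the mutant was lower without overlap, and the difference was -0.87 (SE 0.38), a 1.83-fold gap with a limma adjusted p of 0.525. CAM1 was lower in all 11 alternative fits, some of which cannot change its difference, and ran from -1.08 to -0.38. These gamma subunit genes thus kept opposite signs in each of those fits, a difference between genes that was not tested.

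EFT1 and EFT2 encode the same eEF2 protein, the translocase. EFT2 had 99.7 and 76.6 in the mutant, against 75.7 and 33.2 in the wild type, barely apart, at 0.79 (SE 0.59), and at 1.34 or 0.19 when wild-type replicate 1 or 2 was left out. EFT1 had 42.2 and 12.8 in the mutant, against 37.8 and 10.5 in the wild type, and here the replicates of a strain differed more than the strains did. The EFT1 value of wild-type replicate 2 was below background. YEF3 encodes eEF3, the ATPase that fungal elongation needs. It had 42.6 and 97.6 in the mutant, against 19.1 and 6.84 in the wild type, with 1 wild-type array above background. The difference of YEF3 was 2.38 (SE 0.76) with a limma adjusted p of 0.403. It met the fold rule in all 11 alternative fits, some of which cannot change it, but its size depended on every array. Leaving out mutant replicate 1 or 2 gave 3.16 or 1.77, and leaving out wild-type replicate 1 or 2 gave 2.99 or 1.64.

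HYP2 and ANB1 encode eIF5A, named as an initiation factor and now known to help stalled ribosomes elongate; HYP2 is the form used with oxygen and ANB1 the form used without. ANB1 had 13.9 and 11.7 in the mutant, against 25.8 and 24.5 in the wild type, above background on every array and without overlap. It was lower by -0.93 (SE 0.37), a 1.90-fold gap just short of the fold rule, with a limma adjusted p of 0.493. HYP2 had 49.0 and 37.3 in the mutant, against 65.1 and 49.4 in the wild type, a small gap of -0.40 (SE 0.42). The mutant mean was below the wild-type mean for both genes in all 11 alternative fits, some of which cannot change their differences. ANB1 ran from -1.09 to -0.34 and HYP2 from -0.74 to -0.024. The values nearest 0 were those as deposited, where the strains overlapped for both genes. Near-identical paralogs such as these can share signal on an array.

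Of the release factor genes, SUP35 was well measured and SUP45 was dim. SUP35 encodes eRF3, the GTPase of termination, also known as a prion protein. It had 88.3 and 89.6 in the mutant, against 30.7 and 32.1 in the wild type, and replicates of each strain agree to within a few percent. The difference was 1.47 (SE 0.36), or 2.77-fold, with a limma adjusted p of 0.337. It kept the fold rule in all 11 alternative fits, from 1.11 to 1.82, though some of these fits cannot change it. SUP45 encodes eRF1, which reads the stop codon, and had 12.8 and 3.23 in the mutant, against 3.21 and 1.39 in the wild type. Only 1 of its arrays was above background, and its difference of 1.25 (SE 0.79) was 0.56 when mutant replicate 1 was left out, 0.80 when wild-type replicate 2 was, and 0.80 with a larger offset, each of which ends the fold rule. Cyclic loess ended it too, at 1.35, since the strains then overlapped, and leaving out mutant replicate 2 gave 2.12.

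**Figure D3:**
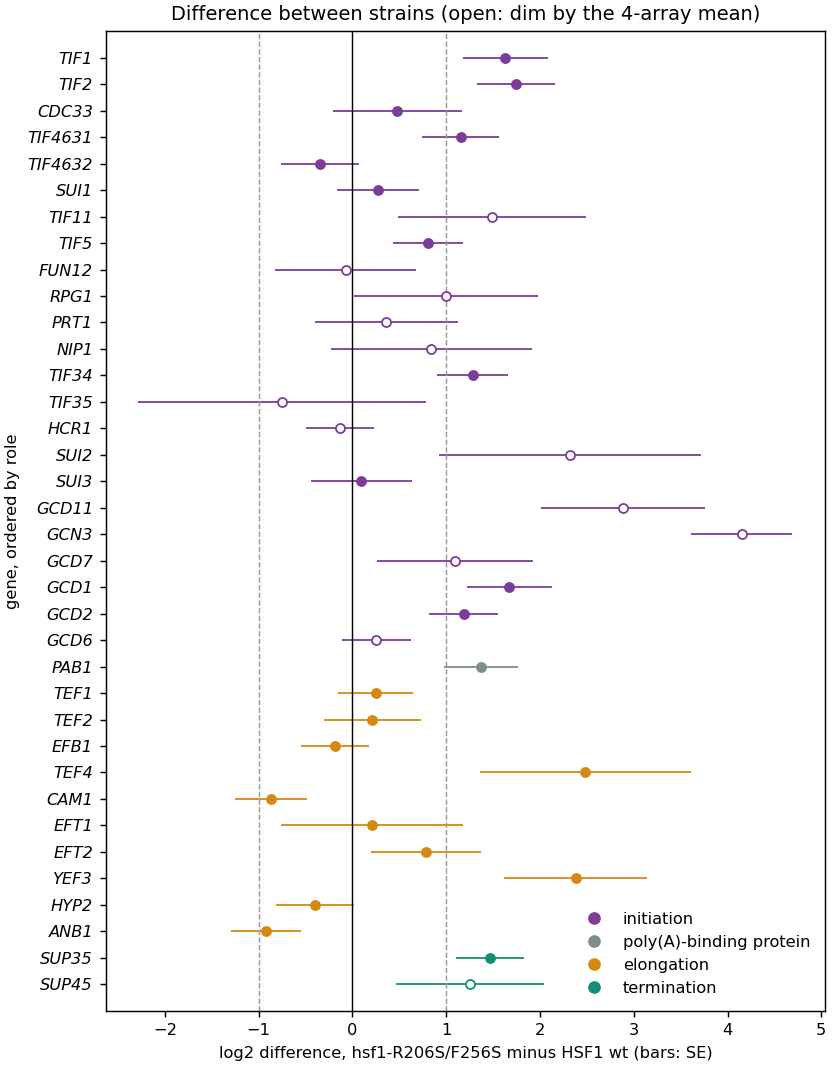
Log2 difference, mutant minus wild type, of the 36 genes with limma's SE as bars, coloured by class; dashed lines mark 2-fold and open points are genes dim by the 4-array mean. Initiation genes sit mostly right of 0, while elongation genes lie from -0.93 to 2.48.

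Initiation and elongation were then set side by side. The median difference was 1.0 over 23 initiation factor genes and 0.21 over 10 elongation factor genes, a gap of -0.79 (elongation minus initiation). The fold rule upward was met by 9 of 23 initiation genes, or 39.1%, and 2 of 10 elongation genes, or 20%, against 13.5% of all genes. The mutant arrays lay above the wild-type arrays without overlap for 11 initiation genes and 3 elongation genes, where 21.2% of all genes did so. They lay below without overlap for 1 initiation gene, HCR1, and for 4 elongation genes, EFB1, CAM1, HYP2 and ANB1, where 19.3% of all genes did so. Within each array, the median log2 level of the initiation genes was 4.12 and 4.33 in the mutant, against 3.56 and 3.28 in the wild type, with no overlap. Both wild-type medians lay below their array's background limit, and both mutant medians above. Above background on both arrays were 15 of the 23 initiation genes in the mutant and 7 in the wild type. For the elongation genes the median level was 5.67 and 5.78 in the mutant, against 5.71 and 5.11 in the wild type, with overlap. The elongation median exceeded the initiation median by 1.55 and 1.45 on the mutant arrays, against 2.15 and 1.84 on the wild-type arrays. This gap was narrower on both mutant arrays, but its wild-type values rest on initiation medians below background. Genes of a class are not replicates, and no p is given.

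The share of dim genes differed between the classes as well. All 10 elongation genes were bright, meaning a mean log2 level over the 4 arrays above the mean background limit, as were 11 of the 23 initiation genes. Over the 7 genes of each class above background on all 4 arrays, which leaves out genes dim in either strain, the medians were 1.18 for initiation and -0.18 for elongation. The elongation genes left out were TEF4, YEF3 and EFT1, each below background on wild-type replicate 2 alone. TEF4 (2.48) and YEF3 (2.38) were the elongation genes that met the fold rule, so the filter itself lowered the elongation median. With dim genes at their bounds, or at 0 where no bound gives a fold, the initiation median was 0.19 and the elongation median 0.21, and the gap was then 0.022. This rule moved no elongation gene, since each was above background on at least 1 array of each strain. It could thus change only the initiation median, and TEF4 and YEF3 kept their full differences. The smaller gap comes from a rule that acted on initiation genes alone. The elongation median was -0.38 with median scaling and 0.0080 with cyclic loess. It was -0.19 when mutant replicate 1 was left out and -0.054 when wild-type replicate 2 was, while the initiation median stayed above 0 in all 11 fits, at 0.57 in the lowest. Counting each pair of genes for 1 protein once gave 0.92 for initiation and 0.02 for elongation.

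**Figure D4:**
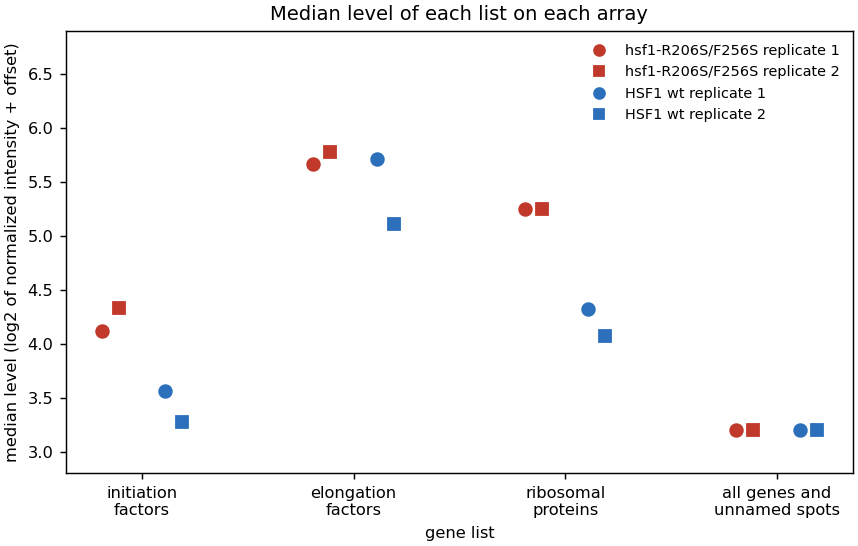
Median log2 level (normalized intensity plus the offset) of each gene list on each of the 4 arrays, mutant left and wild type right. Levels compare between strains within a list, not between lists. Initiation factors and ribosomal proteins lie higher on both mutant arrays, while elongation factors overlap. Both wild-type medians of the initiation factors lie below their array's background limit, as does the ribosomal protein median of wild-type replicate 2.

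**Figure D5:**
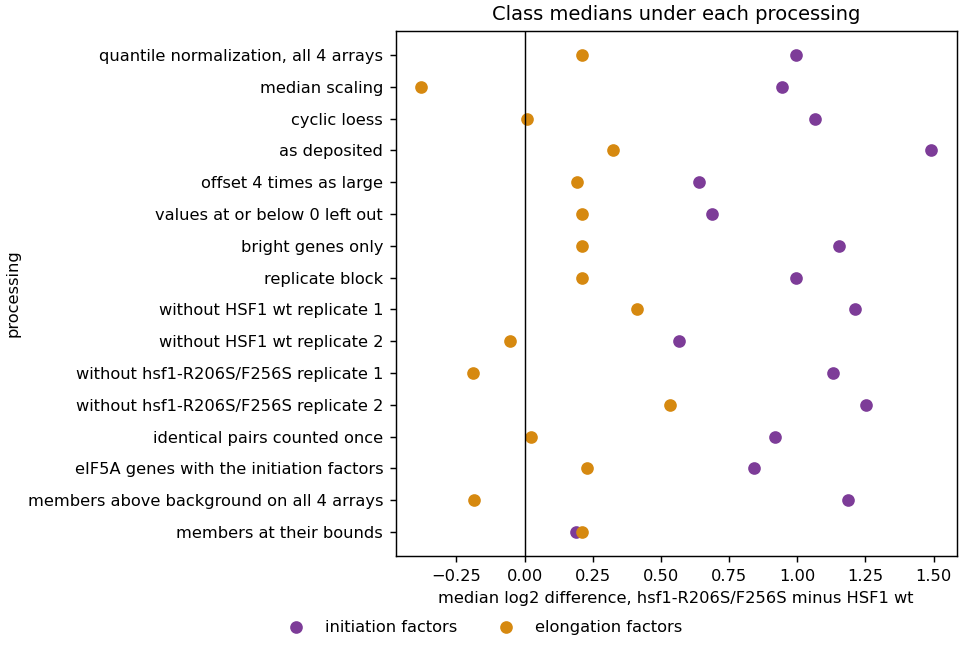
Median log2 difference, mutant minus wild type, of the initiation and elongation factor genes under each processing. Initiation lies right of elongation in every row but the last, where genes below background are set at their bounds, a rule that moves no elongation gene.

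Other genes of translation gave a mixed picture. Of 42 measured genes for regulators, recycling factors, factor-modifying enzymes and partners of Pab1, 9 were higher and 4 lower by the fold rule, or 21.4% and 9.52%, with a median of 0.30. The shares over all genes were 13.5% and 12.8%. GCN4, the transcription activator whose translation eIF2B activity controls, had 345 and 92.8 in the mutant, against 70.7 and 70.9 in the wild type. STM1, which binds idle ribosomes, had 317 and 240 in the mutant, against 123 and 150 in the wild type. EFM1, a methyltransferase of eEF1A, had 14.7 and 22.5 in the mutant, against 1.24 and -0.214 in the wild type. Its mean was at least 1.17-fold higher by the bound, with 14.7 below the normalized limit of wild-type replicate 2, 20.8. PAN3, a subunit of the poly(A) nuclease that Pab1 activates, had 25.6 and 31.2 in the mutant, against 35.1 and 117 in the wild type, and was lower by the rule. Of 21 cytosolic tRNA synthetase genes, 13 were higher (61.9%) and 2 lower (9.52%), with a median of 1.41, and 4 were above background on all arrays. Of 132 cytosolic ribosomal protein genes, 74 were higher (56.1%) and 4 lower (3.03%), with a median of 1.26. With dim genes at their bounds the medians were 0.21 for the translation factors, 0 for the other translation genes, 0 for the synthetases and 0.87 for the ribosomal proteins. These lists were measured on the same 4 arrays, and the differences between them were not tested.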

How the data were processed

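Oligo(dT)-primed cDNA of total RNA carried 33P-dCTP, with 1 sample per array, per the labels. The deposited values are linear intensity values, 1 per spot for 6084 spots, with negative values and array means from 32.4 to 32.6, which points to background subtraction and scaling by the authors; no source used here describes these steps. 5523 spots had 1 gene symbol in GEO's platform annotation, 0 several and 561 none, and a RefSeq gene table (R64) changed 0 of the symbols. Arrays were quantile-normalized, values below 0 set to 0, an offset of 1.06 (5th percentile of positive values) added and log2 taken, then spots of a gene averaged. Noise SD was the median size of negative values over the normal quartile. A bound sets the brighter strain's mean against, per array, the higher of the limit and the gene's own value in the dim strain. It compares means and carries no error, so single values of the brighter strain can lie below a limit. limma 3.58.1 (R 4.3.3) was fitted to all genes, two-sided, mutant minus wild type, with 2 residual and 1.54 prior degrees of freedom. It was also run on simulated data with less noise than these arrays and changes only in bright genes. That run does not show how the fit does on dim genes. Folds carry the offset, which shrinks the changes of dim genes with values above 0. Where values were set to 0, the offset sets the fold, which can lie far above the bound. For GCN3 the fitted fold was 17.8 and the bound 1.14. All listed genes are named, and of the other translation genes those past the fold rule and above background on both arrays of the higher strain; the 36 members and all lists were chosen with earlier results of these data known. Sequences and coordinates are not used here. The number of arrays limits the precision.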

Additional observations from a re-analysis of the deposited data

How the results depend on the processing

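Of 382 member values recomputed in 11 fits, 355 kept their direction, and 23 of 36 genes did so throughout. None met limma's threshold. These counts include values that could not change. The bright-gene fit and the replicate block leave every difference as it was. Leaving out values at or below 0 does so for genes above 0 on all 4 arrays. With median scaling 11 of 36 translation factors were higher by the fold rule and 3 lower (EFB1, CAM1, ANB1), where 14.8% and 12.8% of all genes were. The list median was then 0.53, the elongation median -0.38 and the gap between classes -1.32. CDC33 (-0.14), FUN12 (0.26), TEF1 (-0.021), TEF2 (-0.91) and EFT1 (-0.014) changed sign. With cyclic loess 13 factors were higher and 1, ANB1, was lower, where 13.4% and 14% of all genes were. The gap was -1.06, and SUI3 (-0.031) and TEF2 (-0.011) changed sign. As deposited, the median of all genes was 0.63, 1700 genes were higher and 338 lower, 20 factors were higher, the list median was 1.24, the initiation median 1.49 and the gap -1.17, and TIF4632 (0.27), FUN12 (0.84), TIF35 (0.076), HCR1 (0.52) and TEF2 (-0.19) changed sign. The larger offset gave 537 genes higher and 472 lower, a list median of 0.55, an initiation median of 0.64 and a gap of -0.45. Leaving out values at or below 0 gave a list median of 0.57, an initiation median of 0.69, a gap of -0.48 and RPG1 at -0.21, with no value for GCN3. Bright genes alone gave 12 limma calls, none a translation factor, with 283 genes higher and 220 lower. An intensity trend in limma gave 1 call. A 1.5-fold rule gave 16 factors higher and 2 lower, CAM1 and ANB1, where 1087 and 1004 of all 6051 genes and unnamed spots were. With eIF5A counted as initiation the gap was -0.61. Chosen after seeing the data, genes above background on all 4 arrays gave medians of 0.63 (list), 1.18 (initiation) and -0.18 (elongation) and a gap of -1.37, and bounds gave 0.21, 0.19 and a gap of 0.022. The first choice left out TEF4 and YEF3, and the bounds moved no elongation gene. Without 1 array, limma called 0 genes in each fit, 1049 to 1282 genes were higher and 999 to 1394 lower by the fold rule, 11 to 19 factors were higher and 0 to 1 lower, and the medians were 0.55 to 1.12 (list), 0.57 to 1.25 (initiation) and -0.19 to 0.53 (elongation), with a gap of -1.32 to -0.62. The same 4 fits spanned 0 for CDC33 (-0.32 to 1.32), SUI1 (-0.023 to 0.56), FUN12 (-0.90 to 0.78), RPG1 (-0.18 to 2.22), PRT1 (-0.80 to 1.26), NIP1 (-0.069 to 2.17), TIF35 (-2.40 to 0.77), SUI3 (-0.33 to 0.52), TEF2 (-0.24 to 0.67) and EFT1 (-0.66 to 1.06). The cause of these moves was not tested. Same-numbered arrays did not deviate together over all genes (r 0.02), many of them dim, which does not settle whether the numbers pair samples. With the replicate block the fold rule was looser. It asked that each same-numbered pair differ in the same direction, in place of no overlap between strains. The differences stayed as they were. This gave 0 limma calls, 934 genes higher and 870 lower, and 15 factors higher and 0 lower.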
